A study of Homo sapiens
Mus musculus with 6 samples.

Results

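AXIN2, NKD1, NOTUM, ZNRF3, RNF43, DKK1, LGR5, ASCL2, LEF1 and MYC are targets of canonical WNT signalling, and most of them encode proteins that feed back on the pathway. They were taken by name from the human gene table of HT29 xenograft tumours, where each symbol had 1 row, and they are 10 of 63652 genes listed and 10 of 25838 genes that carry a test. HT29 is an established human colorectal adenocarcinoma line, grown here for 4 weeks under the skin of nude mice, which lack a normal thymus and most T cells. The 3 laminin tumours overexpressed the laminin alpha 1 chain of the mouse, one part of a basement membrane laminin trimer. The 3 control tumours did not, and both groups share the HT29 cells, the nude host and the growth time. The vector, its promoter, the number of cell clones and what the control cells received are not stated in the labels. The human table holds the RNA of the grafted cancer cells and a mouse table that of the host stroma together with the mouse laminin transgene.

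In canonical WNT signalling, ligands bind Frizzled and LRP receptors, a cytoplasmic destruction complex built on APC and AXIN is held back, and β-catenin enters the nucleus to act with TCF and LEF factors. Many genes it switches on restrain the pathway: AXIN2 rebuilds the destruction complex, NKD1 binds Dishevelled, NOTUM cuts the lipid from secreted WNT, ZNRF3 and RNF43 remove Frizzled from the membrane, and DKK1 blocks the LRP co-receptors. LGR5 and ASCL2 mark and maintain stem cells at the base of intestinal crypts. HT29 cells carry truncated APC, as many colorectal cancers do.

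Each table gives 1 value per group, shown here in ppm, the share of that table's total signal in units of 1 in 1000000, so no SD between tumours can be given. They are not divided by gene length, and the levels of different genes are therefore not compared. Significance is that of the authors' test of the groups of 3 tumours, with its p-values adjusted by the Benjamini-Hochberg method over all 25838 tested genes and a threshold of 0.05. No human gene has a p under 5e-05 in the authors' deposited table, and 1067 genes stand at it, so that genes at this p cannot be ranked by it. As a check of the labels, mouse Lama1, the overexpressed gene, had 1077 ppm in laminin tumours and 4.75 ppm in control tumours in the mouse table.

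Of the 10 genes, 5 rose in laminin tumours (AXIN2, NKD1, NOTUM, ZNRF3 and ASCL2), 1 fell (DKK1) and 4 did not pass the test (RNF43, LGR5, LEF1 and MYC). Over all tested human genes, 5.63% rose and 2.45% fell. The median log2 ratio of laminin over control was 0.82 among the 10 genes and 0.004 among all tested genes, and 8 of the 10 ratios were above 1, as were 50.4% of all. The 10 genes were chosen with earlier results of these data known, so these shares describe them and test nothing. The 6 genes whose products restrain the pathway held 4 of the rises, the fall and, with RNF43, a gene that did not pass.

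**Figure D1:**
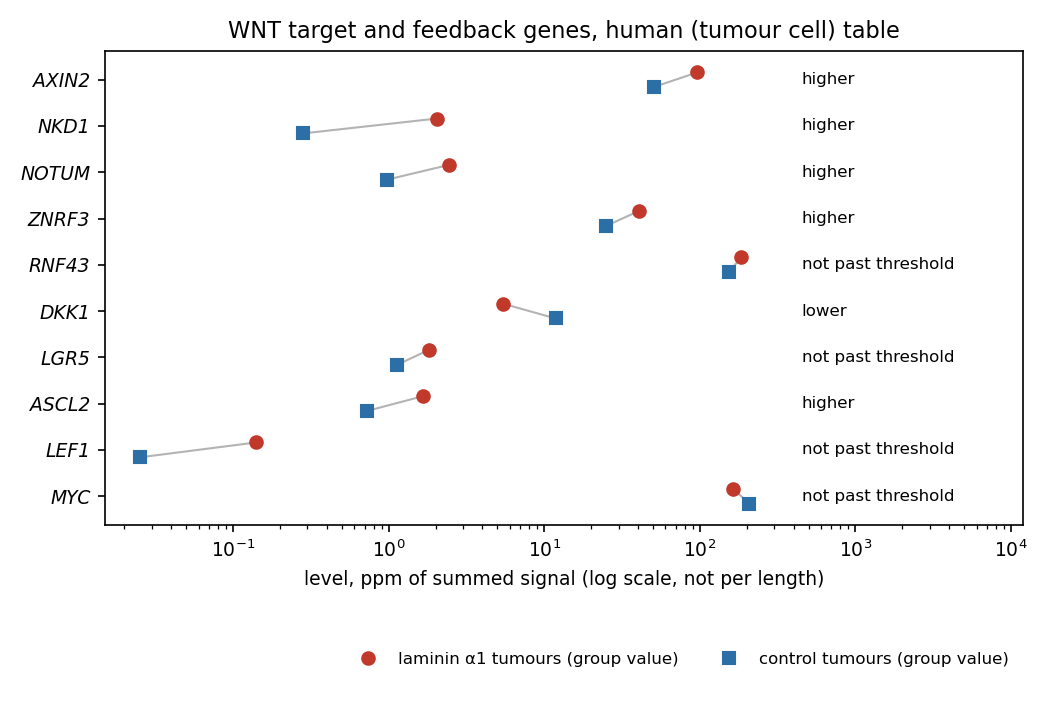
Level of each gene in the human table, in ppm on a log axis, with 1 point per group (circle, the value of 3 laminin α1 tumours; square, the value of 3 control tumours) and the outcome of the authors' test after adjustment at the right. Of the 10 genes, 8 have the laminin point to the right of the control point, and DKK1 and MYC have it to the left.

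Among the feedback genes that act inside the cell, AXIN2 and NKD1 both rose. AXIN2 (ENSG00000168646), the scaffold of the destruction complex and a widely used readout of canonical signalling, had 96.5 ppm in laminin tumours and 50.3 ppm in control tumours, a 1.92-fold rise (log2 ratio 0.94, p = 5e-05 in the authors' deposited table, adjusted p = 0.00121). Of 4815 tested genes whose mean level lay within 2-fold of that of AXIN2, 98.6% had a lower ratio. NKD1 (ENSG00000140807), which binds Dishevelled and dampens the signal, had 2.03 ppm in laminin tumours and 0.282 ppm in control tumours, a 7.21-fold rise (log2 ratio 2.85, p = 5e-05 in the authors' deposited table, adjusted p = 0.00121). NKD1 had the highest ratio of the 10 genes, and 98.9% of the 3128 tested genes within 2-fold of its level had a lower one.

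The NKD1 values rest on few reads. Of the low values of the table, up to a signal of 350, between 58.8 and 69.8% could be written in a single way as a whole-number sum of 3 steps per group, and a step was read as what a single read of a single tumour adds. If so, NKD1 had about 161 reads in the laminin group (157 to 169) against 21 in the control group. The 95% interval of its ratio that counting error alone allows, from the exact binomial interval of these reads, ran from 4.68 to 12.3. In the control group the value was met by a single combination of whole reads, with 3, 3 and 15 reads in the 3 tumours, so 1 control tumour held most of them. Without that tumour the control level of NKD1 would be 0.114 ppm and the ratio 17.7, and without either of the others the ratio would be 5.55 or 5.56, values with no test that were computed after seeing the data. Which labelled control tumour held the 15 reads cannot be read from the table, and the laminin value allowed 15 combinations.

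Of the feedback genes that act outside the cell or at its surface, NOTUM and ZNRF3 rose, DKK1 fell and RNF43 did not pass. NOTUM (ENSG00000185269), the secreted carboxylesterase that inactivates WNT ligands, had 2.45 ppm in laminin tumours and 0.975 ppm in control tumours, a 2.51-fold rise (log2 ratio 1.33, adjusted p = 0.00121 from p = 5e-05 in the authors' deposited table). Its values correspond to about 194 and 75 reads in laminin and control tumours, with a counting interval of 1.90 to 3.31 for the ratio. ZNRF3 (ENSG00000183579), a membrane E3 ubiquitin ligase that R-spondins silence through LGR receptors, had 40.4 ppm in laminin tumours and 24.9 ppm in control tumours, a 1.62-fold rise (log2 ratio 0.70, adjusted p = 0.00121 from p = 5e-05 in the authors' deposited table). RNF43 (ENSG00000108375), the paralogue of ZNRF3 with the same substrate, had 184 ppm in laminin tumours and 154 ppm in control tumours (log2 ratio 0.26), and did not pass, at p = 0.0710 in the authors' deposited table and an adjusted p of 0.387. ZNRF3 passed and RNF43 did not, but the difference between their ratios was not tested.

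DKK1 (ENSG00000107984), the secreted antagonist that binds LRP co-receptors, moved against the other called genes. It fell to 5.42 ppm in laminin tumours, against 11.8 ppm in control tumours, 2.18-fold lower (log2 ratio -1.12, p = 5e-05 in the authors' deposited table, adjusted p = 0.00121). Only 0.658% of the 3343 tested genes within 2-fold of its level had a lower ratio. Of these genes, 3.47% were called lower.

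The stem cell genes differed in outcome. ASCL2 (ENSG00000183734), the transcription factor that holds crypt cells in the stem state, had 1.66 ppm in laminin tumours and 0.722 ppm in control tumours, a 2.29-fold rise (log2 ratio 1.20, p = 8e-04 in the authors' deposited table, adjusted p = 0.0135). These values correspond to about 132 reads in laminin and 55 reads in control tumours, with a counting interval of 1.68 to 3.24. LGR5 (ENSG00000139292), the R-spondin receptor that marks the same cells, had 1.81 ppm in laminin tumours and 1.13 ppm in control tumours, about 144 and 87 reads (log2 ratio 0.67). It did not pass, at p = 0.611 in the authors' deposited table and an adjusted p of 0.964, although its counting interval of 1.22 to 2.11 did not reach 1. That interval covers counting error only and leaves out any spread between tumours. The spread of LGR5 is not known, as its laminin value allowed 12 combinations of whole reads and its control value 5. Why LGR5 did not pass was not tested. Of 820 tested genes within 2-fold of the level of LGR5 and with at least as large a log2 ratio in either direction, 34.8% passed the authors' test after adjustment.

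The transcription factor genes LEF1 and MYC did not pass. LEF1 (ENSG00000138795), which encodes a DNA-binding partner of β-catenin, stood at 0.140 ppm in laminin tumours and 0.0253 ppm in control tumours, the lowest read numbers of the 10 genes. The steps gave 11 reads in the laminin group (2, 3 and 6 in the 3 tumours) and 2 reads in the control group, both in 1 tumour, without which LEF1 would be at 0 in control tumours. Its ratio was 5.55, with a counting interval of 1.16 to 49.3 (log2 ratio 2.47, p = 0.224 in the authors' deposited table, adjusted p = 0.665). MYC (ENSG00000136997), the proliferation-linked transcription factor, had 163 ppm in laminin tumours and 208 ppm in control tumours (log2 ratio -0.35). It missed the threshold narrowly, at p = 0.00425 in the authors' deposited table and an adjusted p of 0.0520, and passed, at 0.0364, when adjusted over genes of 1 ppm or more.

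**Figure D2:**
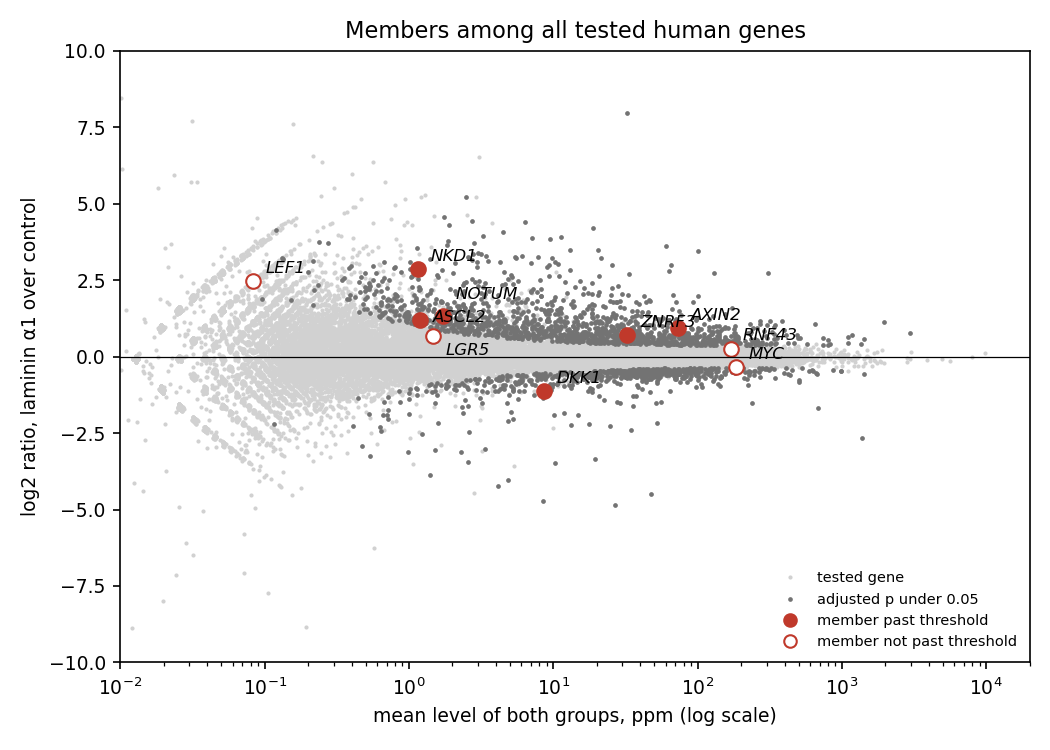
Log2 ratio of laminin α1 over control tumours against the mean level in ppm (log axis) for tested human genes, with dark points for genes at an adjusted p under 0.05 and the 10 genes marked (filled where past the threshold); 1291 tested genes without a finite ratio and 18 outside the frame are not shown. AXIN2 and ZNRF3 lie near the upper edge of the cloud at their level, DKK1 near the lower edge, and LEF1 among genes of very few reads where the cloud is widest.

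**Figure D3:**
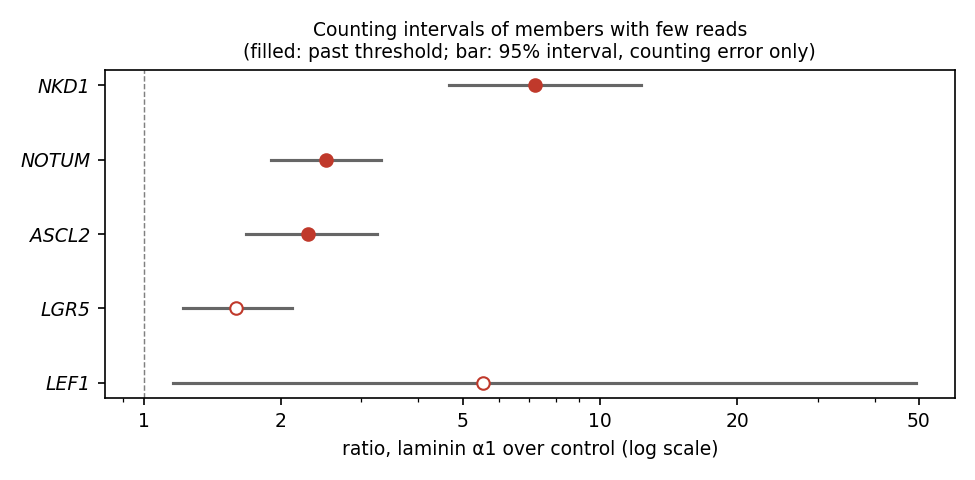
Ratio of laminin α1 over control tumours (log axis) for the 5 genes with the fewest reads, with the 95% interval that counting error alone allows; filled points passed the authors' test after adjustment. NKD1, NOTUM and ASCL2 passed, and LGR5 and LEF1, with lower bounds of 1.22 and 1.16, did not.

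Several of the 10 genes share their locus in the authors' file with others. The library protocol in the labels names no step that keeps the strand. Whether reads in a stretch common to overlapping genes were assigned by strand is therefore not known. How far the genes of a locus overlap was not examined. AXIN2 is listed at chromosome 17, 63524681 to 64188202, together with CEP112, which had 4.91 ppm in laminin tumours and 2.91 ppm in control tumours and did not pass (p = 0.277 in the authors' deposited table). ZNRF3 (chromosome 22, 29279580 to 29453475) shares its locus with the antisense gene ZNRF3-AS1, at 0.112 ppm in laminin tumours and 0.0411 ppm in control tumours. LGR5 (chromosome 12, 71518865 to 71980090) shares its locus with TSPAN8, a surface protein gene with 1012 ppm in laminin tumours and 1057 ppm in control tumours. RNF43 (chromosome 17, 56378592 to 56494956) lies with SUPT4H1, which had 44.5 ppm in laminin tumours and 43.9 ppm in control tumours, and with BZRAP1, at 9.24 ppm in laminin tumours and 3.28 ppm in control tumours. LEF1 (chromosome 4, 108968701 to 109177992) lies with LEF1-AS1, listed at 0 in both groups, and NKD1 (chromosome 16, 50582241 to 50670647) with a pair of unnamed transcripts, of which the higher had 0.0626 ppm in laminin tumours.

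NOTUM (chromosome 17, 79910388 to 79919716), ASCL2 (chromosome 11, 2289725 to 2292182), DKK1 (chromosome 10, 54074056 to 54077802) and MYC (chromosome 8, 128747680 to 128753674) are alone in their loci. The build of these positions is not named in the file. The submitters' processing notes name hg38, but the starts of these 4 lone loci lie between 21227 and 2042119 bases from the RefSeq starts in GRCh38, so the positions are not those of hg38 and serve here only as the file's own labels.

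The rest of the pathway in the tumour cells held rises in 6 of 8 groups, each of a few genes. Over 8 lists with 110 other WNT pathway genes, 15 rose, 2 fell, 69 did not pass and 24 carried no test. Beside this stand the 5.63% and 2.45% of all tested genes that rose and fell. These lists, too, were chosen with earlier results of these data known.

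Of 19 WNT ligand genes 10 carried a test, of which 2 rose and 1 fell, with a median log2 ratio of 0.23. WNT11, a ligand known mostly for β-catenin-independent signalling, had 7.82 ppm in laminin tumours and 2.77 ppm in control tumours (p = 5e-05 in the authors' deposited table, adjusted p = 0.00121). WNT10A, a canonical ligand, had 17.4 ppm in laminin tumours and 11.7 ppm in control tumours (p = 5e-04 in the authors' deposited table, adjusted p = 0.00914). WNT3, a canonical ligand that mouse Paneth cells make for crypt stem cells, fell to 1.46 ppm in laminin tumours, against 2.77 ppm in control tumours (p = 8e-04 in the authors' deposited table, adjusted p = 0.0135). For secretion, WLS, the carrier of WNT proteins, had 146 ppm in laminin tumours and 126 ppm in control tumours, and the acyltransferase PORCN had 2.19 ppm in laminin tumours and 1.74 ppm in control tumours. Neither passed.

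Among 12 tested receptor and co-receptor genes 2 rose and 0 fell, and the median log2 ratio was 0.00 (6 ratios above 1 and 6 below). FZD7, a Frizzled receptor of intestinal stem cells in the mouse, had 12.8 ppm in laminin tumours and 4.91 ppm in control tumours, a 2.62-fold rise (p = 5e-05 in the authors' deposited table, adjusted p = 0.00121). ROR1, a receptor for WNT5A-type signals, had 5.81 ppm in laminin tumours and 3.78 ppm in control tumours (p = 0.00350 in the authors' deposited table, adjusted p = 0.0444). LRP5, a co-receptor and the target of DKK1 protein, had 288 ppm in laminin tumours and 248 ppm in control tumours and did not pass. R-spondin genes were at or near 0 in the human table, with RSPO3 listed at 0 in both groups and RSPO1 at 0.0739 ppm in laminin tumours and 0.0665 ppm in control tumours, which did not pass. LGR4, the widely expressed R-spondin receptor, had 415 ppm in laminin tumours and 404 ppm in control tumours and did not pass. LGR6, another LGR5 paralogue, had 1.60 ppm in laminin tumours (about 127 reads) and 0.146 ppm in control tumours. The control value corresponds to 11 reads, as 3, 2 and 6 in the 3 tumours. The log2 ratio of LGR6 was 3.46, but it did not pass either (p = 0.0114 in the authors' deposited table, adjusted p = 0.110). Without the control tumour with 3, 2 or 6 reads the log2 ratio would be 3.31, 3.15 or 4.07. These values have no test and were computed after seeing the data. The laminin value of LGR6 allowed 10 combinations of whole reads, so its spread between laminin tumours is not known.

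Inhibitors other than the 10 genes included 1 rise and 0 falls among 7 tested. SOSTDC1, a secreted antagonist of WNT and BMP signals, had 12.2 ppm in laminin tumours and 4.17 ppm in control tumours, a 2.92-fold rise (p = 5e-05 in the authors' deposited table, adjusted p = 0.00121). TPBG, a membrane glycoprotein that dampens WNT signalling, had 19.7 ppm in laminin tumours and 20.3 ppm in control tumours, and KREMEN1, the partner of DKK1, had 5.08 ppm in laminin tumours and 3.94 ppm in control tumours. Neither TPBG nor KREMEN1 passed.

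Of 17 tested genes of the destruction complex and its partners 1 passed, with a list median of 0.04. That gene was NKD2, the paralogue of NKD1, with 1.88 ppm in laminin tumours and 0.606 ppm in control tumours, a 3.10-fold rise on about 149 and 46 reads (p = 5e-05 in the authors' deposited table, adjusted p = 0.00121). CTNNB1, which encodes β-catenin, had 288 ppm in laminin tumours and 268 ppm in control tumours, the casein kinase gene CSNK1D had 175 ppm in laminin tumours and 156 ppm in control tumours, and APC had 76.0 ppm in laminin tumours and 80.9 ppm in control tumours. None of these 3 passed. AXIN1, the constitutive paralogue of AXIN2, had 66.6 ppm in laminin tumours and 68.1 ppm in control tumours, with p = 0.806 in the authors' deposited table.

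Among 11 tested nuclear factor genes 3 rose and 0 fell, with a median of 0.27, and all 3 encode Groucho-type co-repressors that hold TCF targets silent. TLE2 had 4.17 ppm in laminin tumours and 1.27 ppm in control tumours (p = 5e-05 in the authors' deposited table, adjusted p = 0.00121). TLE4 had 9.90 ppm in laminin tumours and 4.39 ppm in control tumours, and TLE1 52.8 ppm in laminin tumours and 35.6 ppm in control tumours, both with p = 5e-05 in the authors' deposited table. TCF7L2, the main TCF of the colon, had 103 ppm in laminin tumours and 100.1 ppm in control tumours and did not pass.

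Of the other WNT targets and crypt stem cell genes 23 carried a test, of which 6 rose and 1 fell, with a median log2 ratio of 0.32. EPHB2, the receptor that positions cells along the crypt, had 1.95 ppm in laminin tumours (about 155 reads) and 0.339 ppm in control tumours (26 reads, as 7, 11 and 8 in the 3 tumours), a 5.77-fold rise. SP5, a transcription factor gene induced directly by β-catenin, had 8.36 ppm in laminin tumours and 4.05 ppm in control tumours. PROX1, a homeobox gene that WNT signalling induces in colorectal tumours, had 33.8 ppm in laminin tumours and 15.1 ppm in control tumours. PROM1, which encodes CD133, had 155 ppm in laminin tumours and 83.9 ppm in control tumours. BMP4 had 107 ppm in laminin tumours and 64.6 ppm in control tumours, and CDCA7 139 ppm in laminin tumours and 92.3 ppm in control tumours. Each of the 6 stood at p = 5e-05 in the authors' deposited table. HOPX, a marker of slowly cycling crypt cells in the mouse, fell to 7.39 ppm in laminin tumours, against 12.1 ppm in control tumours (p = 5e-05 in the authors' deposited table, adjusted p = 0.00121).

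**Figure D4:**
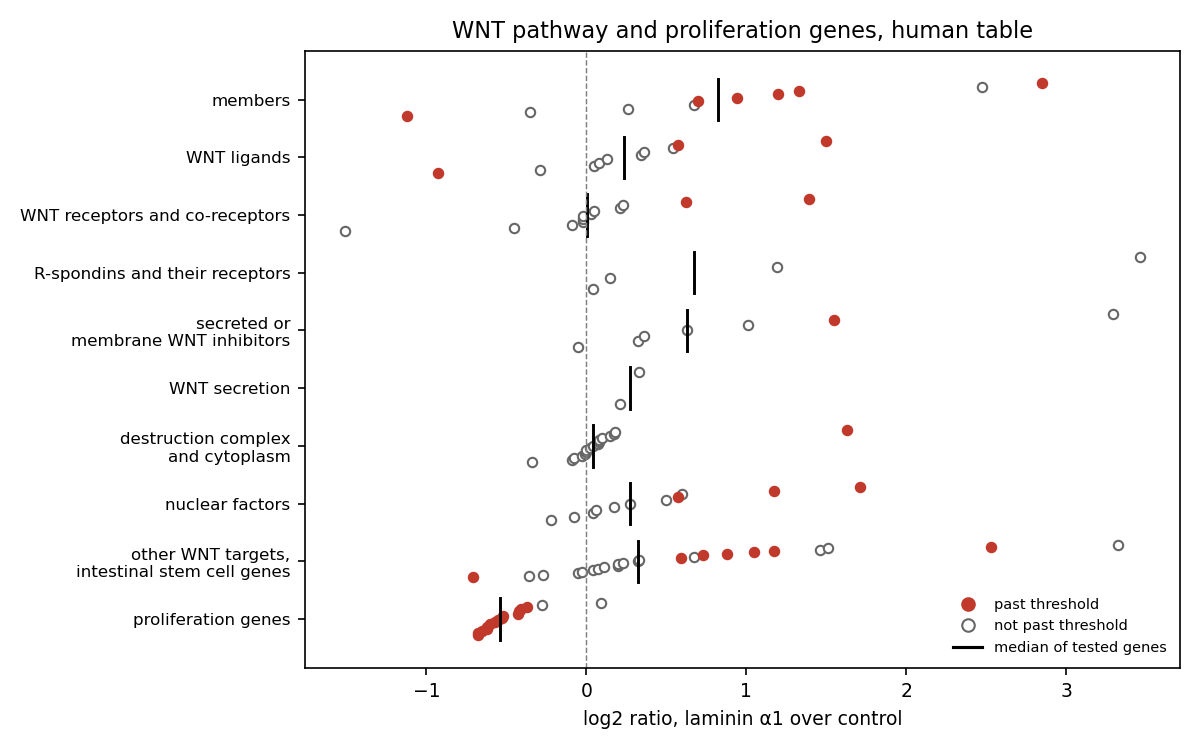
Log2 ratio of laminin α1 over control tumours for each tested human gene, by role; filled points passed the authors' test after adjustment, and bars mark the median of each list. Members spread from -1.12 (DKK1) to 2.85 (NKD1), the destruction complex list clusters near 0 with NKD2 apart, and 15 of 16 proliferation genes lie below 0.

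MYC and CCND1, the WNT targets that drive the cell cycle, did not rise with AXIN2. CCND1, which encodes cyclin D1, had 190 ppm in laminin tumours and 244 ppm in control tumours (log2 ratio -0.36, p = 0.00695 in the authors' deposited table, adjusted p = 0.0758), close to the ratio of MYC. Of 16 proliferation genes 14 fell and 0 rose, with a median log2 ratio of -0.54. Over all tested human genes, 2.45% fell and 5.63% rose. The 14 were MKI67, MCM2, MCM3, MCM4, MCM5, MCM6, MCM7, TOP2A, CCNE1, CDK1, E2F1, AURKA, BIRC5 and RRM2, with log2 ratios between -0.68 and -0.37. MKI67, for example, had 323 ppm in laminin tumours and 471 ppm in control tumours. The part of proliferation in the MYC value was not tested.

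In the host, 0 of the 6 mouse orthologues that carry a test passed, with 0 at an unadjusted p under 0.05, against 0.579% of all tested mouse genes called higher and 2.96% called lower at the authors' q-value under 0.05. Host Axin2 (chromosome 11, 108920349 to 108950781) had 19.5 ppm in laminin tumours and 14.3 ppm in control tumours, on the separate mouse scale (log2 ratio 0.45, q = 0.879 in the authors' deposited table). Host Nkd1 (chromosome 8, 88521344 to 88594887) had 8.67 ppm in laminin tumours and 5.06 ppm in control tumours (log2 ratio 0.78, q = 0.812 in the authors' deposited table). The submitters' processing notes name mm10 for the host, and the host positions were not checked against it. Host Znrf3 had a log2 ratio of -0.45, Lgr5 of -0.37, Myc of -0.17 and Lef1 of 0.34. Notum, Ascl2, Rnf43 and Dkk1 were not tested in the host. A difference between tumour cells and host was not tested for any gene.

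**Figure D5:**
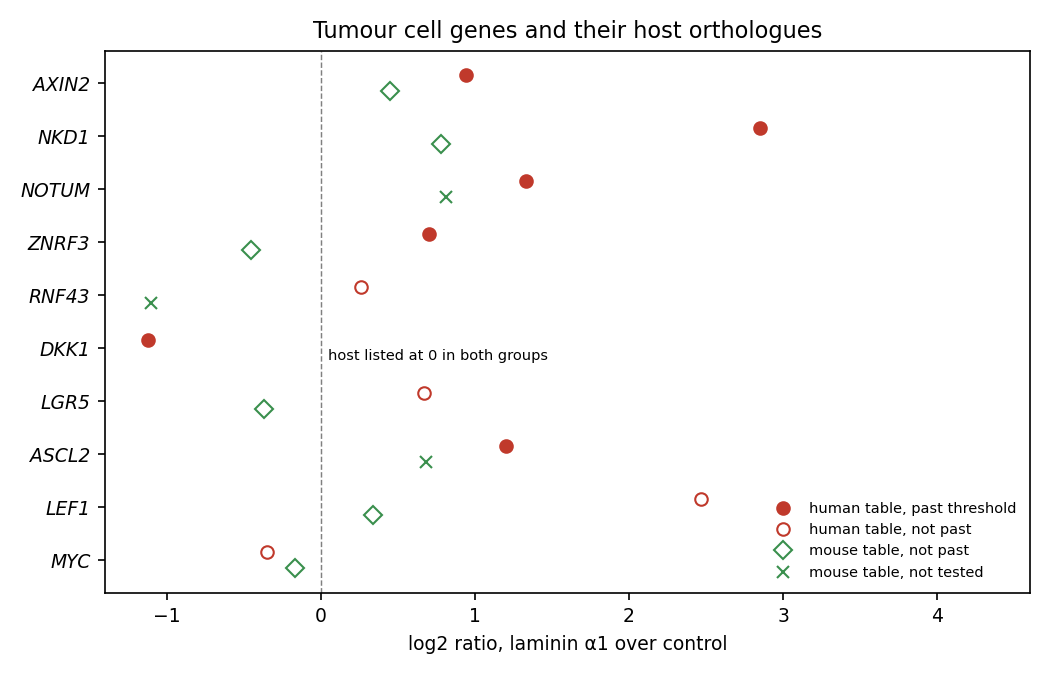
Log2 ratio of laminin α1 over control tumours for the 10 genes in the human table (circles) and for their orthologues in the mouse table (diamonds, or crosses where not tested); filled symbols passed the threshold. Host Znrf3, Lgr5 and Rnf43 lie below 0 where the tumour cell gene lies above it. None of the tested host genes passed, host Rnf43 was not tested, and human LGR5 and RNF43 did not pass either.

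Among WNT ligands and inhibitors of the host, 3 genes rose and 0 fell. Over all tested mouse genes, 0.579% rose and 2.96% fell. Ratios below 1, in 4 tested ligand and R-spondin genes and 3 tested inhibitor genes, did not pass. Host Wnt5a, a ligand of β-catenin-independent signalling, had 87.0 ppm in laminin tumours and 32.1 ppm in control tumours (log2 ratio 1.44, q = 0.00238 in the authors' deposited table), while human WNT5A was listed at 0 in both groups. Host Wnt11 had 55.9 ppm in laminin tumours and 28.5 ppm in control tumours (log2 ratio 0.98, q = 0.0473 in the authors' deposited table), so WNT11 passed in both tables. These were the 2 that rose among 10 tested host ligand and R-spondin genes. Of 12 tested host inhibitor genes 1 rose, the secreted glycoprotein gene Dkk3, with 258 ppm in laminin tumours and 140.0 ppm in control tumours (q = 0.0276 in the authors' deposited table). In the other direction, host Dkk1 was listed at 0 in both groups while human DKK1 carried signal in both, so no human DKK1 reads appear under the mouse gene.

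The human table matched a colorectal epithelial source. All 12 epithelial markers looked for were present, and EPCAM had 1033 ppm in laminin tumours and 1041 ppm in control tumours. All 12 carried a test, of which 1 rose (CDX2) and 2 fell (CDX1 and TFF3), beside 5.63% and 2.45% of all tested human genes. The human table was also read for 16 stromal, vascular and immune markers. Of these, 12 lay under 1 ppm, with PECAM1 and KDR at 0. Only 8 of the 16 carried a test, of which 3 rose (COL1A1, ITGAM and CD14) and 0 fell. The summed level of the 16 markers was 52.1 ppm in laminin tumours and 23.5 ppm in control tumours. CD68 made 41.4 and 18.9 ppm of these sums and did not pass (p = 0.0479 in the authors' deposited table, adjusted p = 0.301). The part of these markers in the WNT results was not tested. In bulk tumours, fewer cells of a type and less RNA per cell cannot be told apart.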

How the data were processed

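RNA of 3 laminin alpha 1 and 3 control HT29 tumours was sequenced as Illumina TruSeq libraries from oligo-dT purified mRNA, per the labels' protocols. The builds hg38 and mm10 and the tools TopHat2 and Cufflinks are named in the submitters' processing notes. Their versions and options, and how reads were assigned to a species, were not given in the sources used here. For each species there is a gene table with Cuffdiff's columns, per the file headers. A gene has a signal value per group, set by the authors on a scale that is not stated, a log2 ratio of laminin over control deposited by the authors, and the authors' unadjusted p-value; the mouse table also holds the authors' q-value. The group columns of the mouse table used are named CTRL and TUM. A copy of the table, with 0 differing values, names them HT29 and HT29 Lama1.

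The signal sums, in units of 1000000, to 891 (laminin) and 893 (control) in the human table and to 951 and 969 in the mouse table. Levels are ppm of the mean of both sums. For each symbol the row with the largest summed value was kept. Human p-values were adjusted by Benjamini-Hochberg over 25838 genes, and 1 malformed line of the mouse table was left out. One read is worth 0.0120 to 0.0137 ppm in the human table, if each of the 3 steps per group is 1 read of 1 tumour. Up to a signal of 350, 58.8 to 69.8% of 400 values per range had a single whole-read solution, against 0 to 3.25% of values shifted off the steps. Members and lists were chosen with earlier results of these data known. The genes named are all members and, from each list, every gene past the threshold and, where these were fewer than 3 in a human list, genes of the highest level up to 3. Further genes named for their role were chosen after their values were seen. Counting intervals use exact (Clopper-Pearson) binomial bounds and cover counting error only; reads need not be independent molecules. Where nothing says that the tumours came from separate cell cultures, p-values cannot be taken to cover a spread between cultures. How the authors' test weighs the spread between these tumours and counting error is not given. Scripts ran in Python 3.11.15 with numpy 2.4.6, pandas 2.3.3 and scipy 1.17.1, and the adjustment and the step solver were tested on simulated data. All 164 human and 47 mouse listed genes were found.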

Additional observations from a re-analysis of the deposited data

How the results depend on the processing

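Of 101 alternative values, 93 kept their direction and their side of the threshold, stayed within 1.5 times for counts, or stayed within the counting interval where a tumour was left out. Of the others, 2 passed the threshold only under the alternative, 6 moved and 0 reversed. Rescaling, centring, adding to the levels or summing rows kept the authors' p, so none could move a gene across the threshold. Adding to both levels also could not reverse a direction, and summing rows changed nothing because each of the 10 symbols had 1 row. Many of the 93 were thus fixed beforehand, and their number is no measure of robustness. Adjusted over genes of 1 ppm or more, 2 of the 10 genes were lower in laminin tumours in place of 1, since MYC then passed, at 0.0364 from the p of the authors' deposited table (0.0361 over genes of 5 ppm or more). Over genes of 5 ppm or more, 2 of the 10 were higher and 2 lower, because NKD1, NOTUM and ASCL2 lie under that level and were not in the test. Among the other WNT pathway genes the count lower was 1 both at 5 ppm or more and at an adjusted p under 0.01. With 1 ppm added to both levels the log2 ratio was 1.24 for NKD1, 0.80 for NOTUM, 0.63 for ASCL2, 0.40 for LGR5 and 0.15 for LEF1, so the size of these 5 depends on how low levels are treated. No paired analysis was possible because the tables hold 1 value per group and the labels number no tumours across groups. The test could not be repeated without a tumour for the same reason. Leaving out 1 tumour, an alternative chosen after seeing the data, was done only for NKD1, LEF1, LGR6 and EPHB2. The log2 ratios were 2.47 to 4.15 for NKD1, 1.89 to 2.79 for LEF1, 3.15 to 4.07 for LGR6 and 2.38 to 2.72 for EPHB2. LEF1 had no ratio where it was left at 0 in control tumours. The control values of NOTUM and ASCL2 were also met by a single combination of whole reads, but no tumour was left out for them. For NKD1, LGR6 and EPHB2 only control tumours could be left out, because their laminin values allowed 15, 10 and 14 combinations of whole reads. Whether a single laminin tumour carried these ratios was not tested. The read numbers limit LEF1, with 2 control reads, and NKD1, with 21.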
